A study of Mus musculus with 2 samples.

Results

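Igfbp4 and 8 further genes of the insulin-like growth factor (IGF) axis were compared between mature and immature dendritic cells (DC) of the mouse. These cells carry antigen to lymph nodes and show it to T cells. The 9 genes were Igfbp4, Igfbp6, Igfbp7, Igf1, Igf1r, Igf2r, Insr, Irs2 and Pappa, taken by their Entrez Gene numbers from 18090 gene entries found in either library. The set was put together because Igfbp4 stood far higher in the mature library, so its values, and those of the other members in the same pair of libraries, are a description and were not tested. The study has 2 RNA-seq libraries: 1 of mature DC and 1 of immature DC. The cells of each were grown from C57BL/6 marrow for 6 days with 10 ng/ml GM-CSF and 1 ng/ml IL-4, and each was sorted on surface CD86 and on I-Ab, an MHC class II molecule, with gates that the labels do not give. The labels add lipopolysaccharide (LPS, a cell wall component of bacteria) at 100 ng/ml for 24 h to the sample they number 2, read here as the mature library. They do not say how many animals were used or whether immature cells stayed in culture for as long.

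IGF1 and IGF2 are small secreted hormones that act through the tyrosine kinase receptor encoded by Igf1r and, together with insulin, through its relative encoded by Insr. Outside cells most IGF is held by binding proteins of the IGFBP family, which lengthen its life and can keep it from the receptor, and proteases such as pappalysin cut these proteins and set IGF free. Inside the cell, IRS proteins link the receptors to PI3-kinase and Akt, while the receptor encoded by Igf2r has no kinase, takes IGF2 to lysosomes for breakdown and sorts lysosomal enzymes that carry mannose 6-phosphate. Macrophages are a known source of IGF1.

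The stretch before the start of transcription is shown for 3 members, the pair called higher in mature DC by the rule given below and the receptor gene that stood lower there. The sequences are the 250 bases before the start in the RefSeq promoter table (build GRCm38.p6, not the build mm8 of the read counts), which holds such a window for 7 of the 9 members. They lie at chr11:99040994-99041243 on the plus strand for Igfbp4, chr5:77408046-77408295 on the minus strand for Igfbp7 and chr7:67952007-67952256 on the plus strand for Igf1r, and are written 5′ to 3′ along the gene with motif matches in capitals.
Igfbp4: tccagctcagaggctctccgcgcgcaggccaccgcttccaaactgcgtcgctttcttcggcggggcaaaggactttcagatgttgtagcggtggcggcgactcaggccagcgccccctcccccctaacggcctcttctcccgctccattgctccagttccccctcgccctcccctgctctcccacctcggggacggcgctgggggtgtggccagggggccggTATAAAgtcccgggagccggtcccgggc
Igfbp7: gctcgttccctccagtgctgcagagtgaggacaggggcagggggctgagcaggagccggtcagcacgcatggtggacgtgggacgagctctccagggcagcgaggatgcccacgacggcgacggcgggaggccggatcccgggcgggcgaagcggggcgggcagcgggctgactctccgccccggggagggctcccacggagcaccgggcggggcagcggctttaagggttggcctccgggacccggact
Igf1r: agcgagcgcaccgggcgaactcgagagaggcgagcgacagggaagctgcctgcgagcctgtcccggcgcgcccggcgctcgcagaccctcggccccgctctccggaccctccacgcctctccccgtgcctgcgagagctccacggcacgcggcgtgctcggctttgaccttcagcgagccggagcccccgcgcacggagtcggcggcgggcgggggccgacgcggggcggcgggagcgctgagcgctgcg
The motifs searched on both strands were the TATA box TATAAA, the AP-1 motif TGANTCA, the interferon-response motif GAAANNGAAA and the kB motif of NF-kB. The Igfbp4 window held 1 match, TATAAA on the strand of the gene, 28 to 23 bases before the start. Of 32851 promoter windows of the same length, 12.4% held TATAAA on either strand at any place. With TATAAA on the strand of the gene and its first base 35 to 20 bases before the start, a stretch chosen after the match was seen, the share was 1.84%. The windows of Igfbp7 and Igf1r held none of the 4 motifs. Among the member windows not shown, that of Igf1 held the AP-1 match TGAATCA, 37 to 31 bases before the start. That of Igfbp6 held TATAAA on the other strand, 148 to 143 bases before the start, and those of Igf2r and Irs2 held no match. Over all windows the shares were 6.75% for AP-1, 2.98% for the interferon-response motif and 7.25% for kB. The bases G and C made up 69.2% of the Igfbp4 window, 74% of the Igfbp7 window and 77.6% of the Igf1r window, against a median of 52.4% over all windows.

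Reads counted to genes numbered 8.07 M in mature and 7.56 M in immature DC. Levels are in RPKM, reads per kilobase of the gene model and per 1000000 counted reads, and each value is 1 library with no replicate. Ratios are mature over immature RPKM with the exact 95% interval of the read counts in parentheses, which covers counting error only, so no difference below was tested between conditions. A gene was called higher or lower when log2 of (mature RPKM + 1) over (immature RPKM + 1) was at least 1 in size, that is 2-fold, among the 11547 genes that reached 1 RPKM in either library. This scale understates the change of genes with low values. In bulk RNA, fewer cells that express a gene and less of its RNA per cell cannot be told apart.

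Cd86, the gene of a sort marker, had 152 RPKM in mature and 26.1 RPKM in immature DC, and H2-Ab1, the gene of an I-Ab chain, had 978 RPKM in mature and 1256 RPKM in immature DC. All 10 of a list of dendritic cell markers were above 1 RPKM in a library, 2 of them at least 2-fold higher in mature DC (Flt3 and Zbtb46) and 2 at least 2-fold lower (Itgax and Dpp4). RNA of neutrophil genes was present in both libraries and lower in the mature one: all 10 listed genes were at least 2-fold lower, and they summed to 855 RPKM in mature and 6774 RPKM in immature DC, most of it from S100a9 and S100a8. The 10 macrophage and monocyte genes summed to 687 RPKM in mature and 1285 RPKM in immature DC, with 5 at least 2-fold lower. The most abundant, Cd68 and Csf1r, were within 2-fold, with log2 folds of -0.80 and -0.99. The 5 lower ones, named after their values were seen, were Ccr2, C1qa, Mrc1, Fcgr1 and Mertk. Adgre1, named in the same way, was the only 1 of the 10 with a ratio above 1, at 1.33. Over all genes compared by the 2-fold rule, 9.05% were called higher and 11.3% lower. Whether the mix of cells has a part in the values below was not tested.

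Of the 9 members, 8 had a row in a file and 7 reached 1 RPKM. Among these 7, Igfbp4 and Igfbp7 were at least 2-fold higher in mature DC, none was 2-fold lower and 5 lay within 2-fold. Over all compared genes 9.05% were called higher and 11.3% lower. The counting interval lay wholly above a ratio of 1 for 6 members and wholly below it for Igf1r, against 36.1% and 33.8% of all compared genes. The median log2 fold was 0.61 over the 7 members and 0.026 over all compared genes. Since the set was chosen on this contrast, these shares describe it and say nothing about IGF genes in general.

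**Figure D1:**
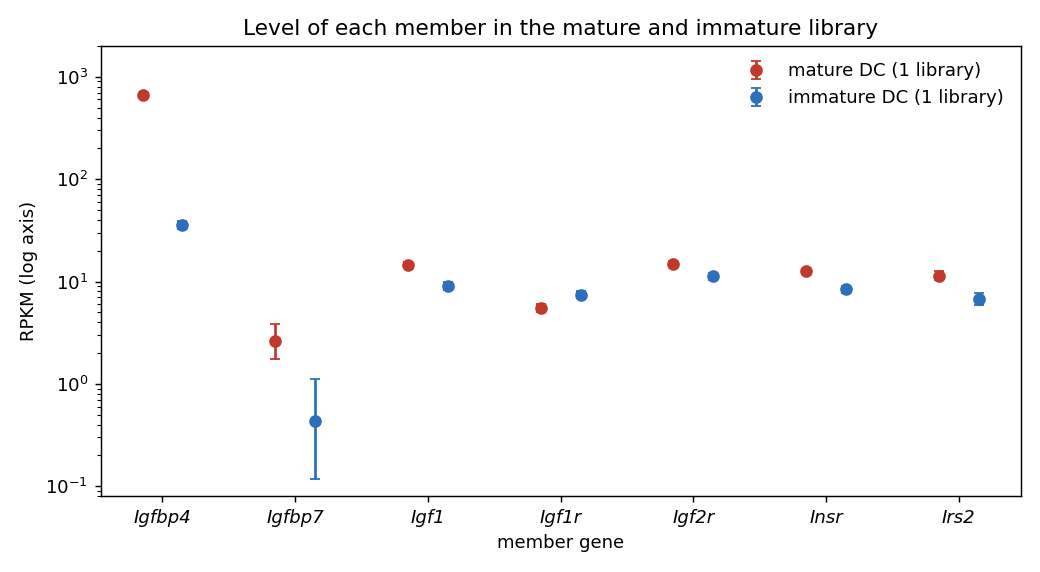
Level of the 7 members that reached 1 RPKM, in RPKM on a log axis, with mature DC (red) left of immature DC (blue), 1 library each; bars are exact 95% Poisson intervals of the read count and are hidden by most points. Igfbp4 stands at 668 RPKM in mature and 35.7 RPKM in immature DC, and the receptors, Igf1 and Irs2 lie between 5.51 and 15.0 RPKM in both libraries.

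Igfbp4 (Entrez Gene 16010) encodes a secreted binding protein known mainly for holding IGFs away from their receptor, and pappalysin is its best known protease. It had 11160 reads in the mature library and 558 in the immature one, on a gene model of 2069 bases. These are 668 RPKM (95% Poisson interval 656 to 681) in mature DC and 35.7 RPKM (32.8 to 38.7) in immature DC. The ratio was 18.7 (17.2 to 20.4), and the log2 fold of 4.19 was at rank 10 of all compared genes. Igfbp4 was thus already well above 1 RPKM in the immature library and stood among the abundant RNAs of the mature one. By RPKM it held rank 53 of 16646 listed genes in mature DC and rank 2224 of 16573 in immature DC. Reads covered 98.9% of its gene model in mature and 95.9% in immature DC, so both values rest on nearly the whole model. Its reads made up 0.138% of all counted reads in the mature library (Wilson 95% interval 0.136 to 0.141) and 0.00738% in the immature library (0.00679 to 0.00802).

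The genes with a ratio as high as that of Igfbp4 were mostly scarce in immature cells. Another 81 compared genes had at least its ratio, with a median of 1 immature read and 34 of them with none. Of the 81, 0 had as many immature reads as Igfbp4. Igfbp4 was picked for its rise, and the cut is its own ratio, which favours genes with few immature reads. The 0 therefore does not set Igfbp4 apart. Ccr7, with 470 immature reads and a ratio of 18.38 (16.75 to 20.21), fell below the cut by less than counting error. Among genes at least 2-fold higher, 15 others had at least its level in mature DC.

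The 5 genes with the log2 fold nearest to that of Igfbp4 were picked from 6605 other genes. All 6605 had a gene symbol and reached 10 RPKM in either library. Ccr7 was the closest. Likeness here is the difference of log2 folds over the 2 libraries and nothing else. Ccr7, the chemokine receptor that leads mature DC to lymph nodes, had 578 RPKM in mature and 31.5 RPKM in immature DC, a log2 fold that differed from that of Igfbp4 by -0.03. Stat4, a transcription factor of the interleukin-12 pathway, differed by 0.06, and Hamp, the gene of the iron hormone hepcidin, by -0.11. Cd200, an inhibitory ligand for myeloid cells, differed by 0.16 and Sema7a, a membrane semaphorin, by 0.18. The log2 folds understate the change of genes with low values. By RPKM ratio Cd200 rose more than Igfbp4, at 32.8 (22.5 to 49.6) on 28 immature reads against 18.7 (17.2 to 20.4). The ratios of Stat4, at 21.3 (18.4 to 24.8), and Sema7a, at 23.9 (20.3 to 28.3), had intervals that overlapped that of Igfbp4. So did that of Hamp, at 21.9 (11.7 to 46.3) on 10 immature reads. Only Ccr7 also had a level near that of Igfbp4: the other 4 had between 51.4 RPKM (Cd200) and 176 RPKM (Stat4) in mature DC.

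The other binding proteins gave little signal. Igfbp7 (29817), a relative of the family that binds IGFs weakly, had 26 reads in the mature and 4 in the immature library. These are 2.65 RPKM (1.73 to 3.89) in mature and 0.436 RPKM (0.119 to 1.12) in immature DC, a ratio of 6.09 (2.11 to 24.0) and a log2 fold of 1.35. Both levels are low, and the interval is wide because of the 4 immature reads. Those 4 reads covered 52 bases of the 1213 in the gene model, near the 49 bases that a single read covered, while the 26 mature reads covered 550 bases. Among 61 genes with 4 immature reads and a model of 1000 to 1500 bases the median was 147 covered bases, and 2 of the 61, Igfbp7 included, had as few as Igfbp7. Igfbp6 (16012), which binds IGF2 in preference to IGF1, had no row in either library and is not analysed here; for this and the other genes without a row, a count of 0 and a row left out cannot be told apart. Beyond the members, Igfbp3 and Igfbp5 were the only other IGFBP genes with a row. Igfbp5 had 3 reads in each library, and Igfbp3 had 0 reads in mature and 1 in immature DC, named here after their values were seen. Igfbp4 and Igfbp7 together summed to 671 RPKM in mature DC and 36.1 RPKM in immature DC.

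Pappa (18491) encodes pappalysin, the protease that cuts the Igfbp4 protein. It had 1 read in the mature and 0 in the immature library on a gene model of 11027 bases, too few for a ratio. The exact Poisson upper limits were 0.0626 RPKM in mature and 0.0442 RPKM in immature DC, so RNA of Pappa was at the edge of detection while that of Igfbp4 stood at 668 RPKM in mature and 35.7 RPKM in immature DC.

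Other genes that bear on IGFBP cleavage were taken from a list of 10 for IGFBP proteases, their inhibitors and the processing of IGF precursors, of which 6 could be compared. Of these, 1 was called higher, 1 lower and 4 neither, with a median log2 fold of -0.17. The shares over all compared genes were 9.05% higher and 11.3% lower. Htra1, a secreted serine protease that can cut IGF-binding proteins, was the higher one. It had 238 reads in mature and 6 in immature DC, which are 14.4 RPKM in mature and 0.387 RPKM in immature DC and a ratio of 37.2 (16.8 to 102). Its relative Htra3 was the lower one, with 5 reads in mature and 55 in immature DC, 0.226 RPKM in mature and 2.65 RPKM in immature DC, 11.7-fold lower (4.74 to 37.6). With a pseudocount of 5 RPKM, or among genes reaching 5 RPKM, Htra3 was no longer called. The list's other values were named after they were seen. The most abundant was Ctsd, a lysosomal protease, at 2385 RPKM in mature and 2611 RPKM in immature DC. Furin, which processes precursors of the IGF system, had 45.4 RPKM in mature and 52.3 RPKM in immature DC, and Adam9, a membrane metalloprotease, 37.5 RPKM in mature and 35.8 RPKM in immature DC. The scarcer ones include Stc2, an inhibitor of pappalysin, at 3.38 RPKM in mature and 4.20 RPKM in immature DC. They also include Pappa2, the sister protease, with 2 reads in mature and 0 in immature DC.

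**Figure D2:**
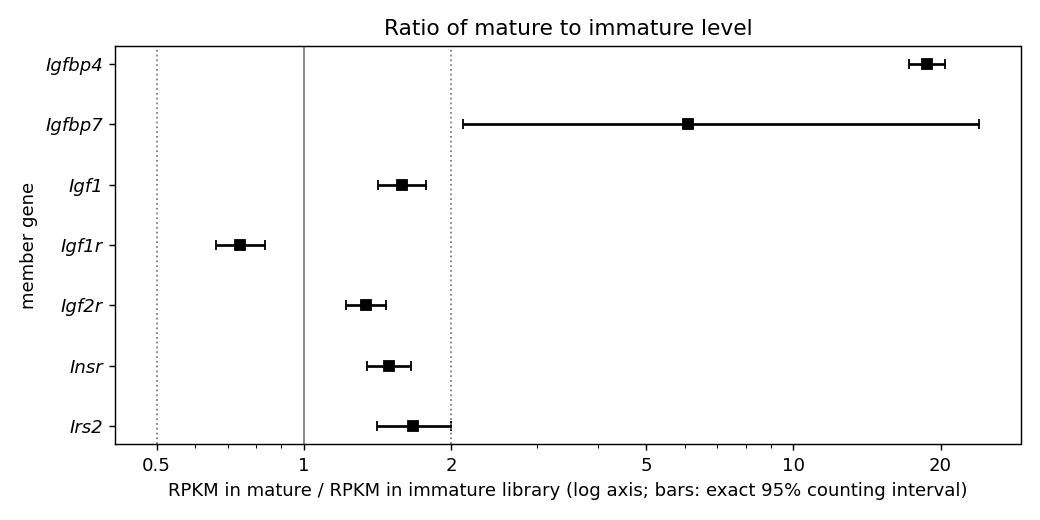
Ratio of mature to immature RPKM for the 7 members that reached 1 RPKM, on a log axis; squares are the ratios of 1 library to 1 library, bars the exact 95% counting intervals, the solid line a ratio of 1 and dotted lines 2-fold in either direction. Igfbp4 lies at 18.7 and Igfbp7 at 6.09 with a wide bar, 4 members lie between 1.34 and 1.67, and Igf1r alone lies below 1.

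Igf1 (16000) was the only ligand gene with a row. It had 829 reads in mature and 489 in immature DC, that is 14.4 RPKM (13.4 to 15.4) in mature and 9.08 RPKM (8.29 to 9.92) in immature DC. The ratio was 1.59 (1.42 to 1.78), above counting error but within 2-fold. The ligand genes Igf2, Ins1 and Ins2 had no row in either library and are not analysed here. Reads covered 76.2% of the Igf1 model in mature and 73.9% in immature DC.

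The 3 receptor genes differed in direction, with Insr and Igf2r higher and Igf1r lower in mature DC. Insr (16337), the insulin receptor, had 950 reads in mature and 597 in immature DC, 12.6 RPKM (11.8 to 13.4) in mature and 8.44 RPKM (7.77 to 9.14) in immature DC. Its ratio was 1.49 (1.34 to 1.65). Igf1r (16001), the signalling receptor of IGF1 and IGF2, had 533 reads in mature and 673 in immature DC. Its level was 5.51 RPKM (5.05 to 6.0) in mature and 7.43 RPKM (6.88 to 8.01) in immature DC, 1.35-fold lower in mature DC (1.20 to 1.51). It was the one compared member with a lower value in the mature library, and its log2 fold stayed between -0.42 and -0.24 under every scaling and pseudocount tried. Igf2r (16004), which clears IGF2 and sorts lysosomal enzymes, had 1083 reads in mature and 759 in immature DC, 15.0 RPKM (14.1 to 15.9) in mature and 11.2 RPKM (10.4 to 12.0) in immature DC. Its ratio was 1.34 (1.22 to 1.47).

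Within a library, the balance between the receptors differed. RNA of Insr was 2.28 times that of Igf1r per length in mature DC (2.05 to 2.54) and 1.14 times in immature DC (1.01 to 1.27). Igf2r stood at 2.72 times Igf1r in mature DC (2.45 to 3.02) and at 1.51 times in immature DC (1.36 to 1.68). Reads covered 68.87% of the Igf1r model in mature and 74.75% in immature DC. The shares were 89.29% in mature and 83.1% in immature DC for Insr, and 91.32% and 89.1% for Igf2r. The part of coverage in levels compared between genes was not tested. The 3 receptor genes together summed to 33.1 RPKM in mature and 27.1 RPKM in immature DC.

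Irs2 (384783), the adaptor that passes the signal of Insr and Igf1r to PI3-kinase, had 370 reads in mature and 207 in immature DC. This is 11.4 RPKM (10.3 to 12.6) in mature and 6.82 RPKM (5.92 to 7.81) in immature DC, a ratio of 1.67 (1.41 to 1.99). Irs2 was the member nearest below the 2-fold line, with a log2 fold of 0.67, and Igfbp7 the nearest above it. Its relative Irs1 had 0 reads in mature and 1 in immature DC, named after its value was seen, and Irs4 had no row.

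The ratios of the long members have to be read beside the length of their gene models. Igf1, Igf1r, Igf2r and Insr have models of 7121, 11978, 8948 and 9357 bases. Among 582 compared genes of 7000 to 13000 bases the median log2 fold was 0.27 and 70.4% had a ratio above 1, whereas among 2459 genes under 1500 bases the median was -0.21 and 39.2% had a ratio above 1. The log2 folds of Igf1 (0.61), Insr (0.52) and Igf2r (0.39) lay above the median of genes of like length, and that of Igf1r (-0.37) lay below it. The part of model length in these ratios was not tested. For Igfbp4, with 2069 bases, the 4185 compared genes of 1500 to 3000 bases had a median of -0.01 and 9.08% called higher.

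In the order of levels, Igfbp4 led in both libraries. In mature DC it was followed by Igf2r, Igf1, Insr, Irs2, Igf1r, Igfbp7 and Pappa, and the neighbours Igf2r and Igf1, and Insr and Irs2, did not differ beyond counting error. In immature DC the order was Igfbp4, Igf2r, Igf1, Insr, Igf1r, Irs2 and Igfbp7, and the neighbours Igf1 and Insr, and Igf1r and Irs2, did not differ beyond counting error. Igf1r thus stood below Irs2 in mature DC, with Irs2 at 2.07 times Igf1r (1.81 to 2.37). In immature DC the pair was level, with Igf1r at 1.09 times Irs2 (0.931 to 1.28). Igfbp4 stood at 44.6 times the next member in mature DC and at 3.18 times in immature DC. Its reads were 74.6% of the reads of all members in mature DC (Wilson 95% interval 73.9 to 75.3) and 17.0% in immature DC (15.7 to 18.3). Without Igfbp4, the compared members summed to 61.6 RPKM in mature and 43.4 RPKM in immature DC.

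**Figure D3:**
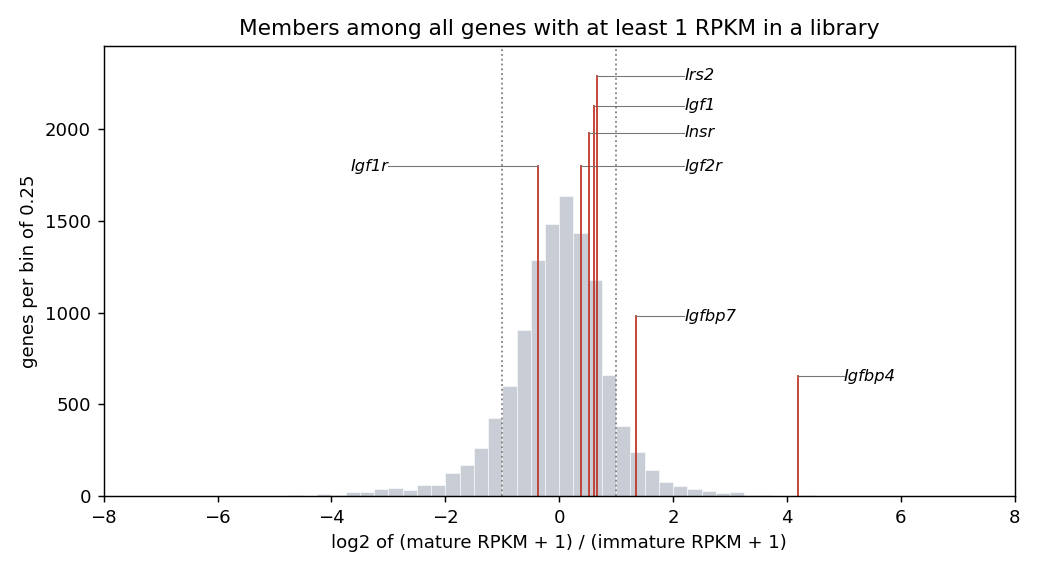
Distribution of the log2 fold of mature over immature DC, on RPKM + 1, for the 11547 compared genes (grey bars, genes per bin of 0.25), with the 7 compared members as red lines of arbitrary height; dotted lines mark 2-fold. Igfbp4 at 4.19 lies in the far right tail, Igfbp7 at 1.35 beyond the 2-fold line, and the other members in the body of the distribution.

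Genes that carry the signal further were counted from lists of the pathway. Over all compared genes 9.05% were called higher and 11.3% lower, with a median log2 fold of 0.026. Of 21 adaptors and brakes, 15 could be compared: 3 were at least 2-fold higher in mature DC, 0 lower and 12 within 2-fold, with a median log2 fold of 0.34. The higher ones were Sh2b2, an adaptor of the insulin receptor, at 23.5 RPKM in mature and 8.12 RPKM in immature DC, a ratio of 2.90 (2.44 to 3.45); Gab2, a scaffold for PI3-kinase and Ptpn11, with a ratio of 2.21 (2.04 to 2.41); and Dok1, a docking protein that dampens kinase signals, with a ratio of 2.13 (1.79 to 2.55). With a pseudocount of 5 RPKM 1 of the list was still called.

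The PI3-kinase, Akt, mTOR and FoxO list had 32 genes, all compared, of which 8 were higher, 1 lower and 23 within 2-fold, with a median of 0.44. The shares over all compared genes were 9.05% higher and 11.3% lower. Many models of this list are long. Compared genes of 3000 to 7000 bases had a median of 0.13, with 9.36% called higher. For those of 7000 to 13000 bases the values were 0.27 and 9.97%. The part of model length in the list was not tested. Foxo1, a transcription factor that Akt keeps out of the nucleus, had 937 reads in mature and 158 in immature DC, 20.9 RPKM in mature and 3.76 RPKM in immature DC, a ratio of 5.56 (4.69 to 6.62). Pik3r1, which encodes the regulatory subunit p85-alpha, had 94.3 RPKM in mature and 19.8 RPKM in immature DC, a ratio of 4.78 (4.47 to 5.11). Phlpp1, a phosphatase that switches Akt off, had a ratio of 4.43 (3.36 to 5.92), and Pik3r5, a regulatory subunit of the PI3-kinase coupled to G proteins, one of 3.20 (3.03 to 3.38). Pik3cd, the catalytic subunit that prevails in leukocytes, went the other way, with 40.3 RPKM in mature and 97.9 RPKM in immature DC, 2.43-fold lower (2.29 to 2.57). Akt1 and Akt2, singled out after their values were seen, had reads over only 9.05% and 6.81% of their models in mature DC, so their low levels are uncertain. With a pseudocount of 5 RPKM 4 genes of this list were called higher in place of 8.

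For the other task of Igf2r, the sorting of enzymes with mannose 6-phosphate, 16 genes were compared: 2 were higher, 1 lower and 13 within 2-fold, with a median of 0.01. The shares over all compared genes were 9.05% higher and 11.3% lower. Gga3 and Gga2, adaptors that load this receptor into vesicles at the Golgi, had ratios of 2.76 (2.39 to 3.21) and 2.66 (2.36 to 3.0). Snx2, a sorting nexin of the retromer that returns the receptor from endosomes, had 67.9 RPKM in mature and 218 RPKM in immature DC, 3.20-fold lower (2.99 to 3.43). Of the 3 genes for proteins that bind IGF2 mRNA, 2 were compared. Igf2bp2 was higher, at 21.1 RPKM in mature and 3.59 RPKM in immature DC, a ratio of 5.86 (4.77 to 7.26). Igf2bp3, named after its value was seen, lay within 2-fold, with 4.14 RPKM in mature and 4.91 RPKM in immature DC. Its ratio was 0.844 (0.670 to 1.06).

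**Figure D4:**
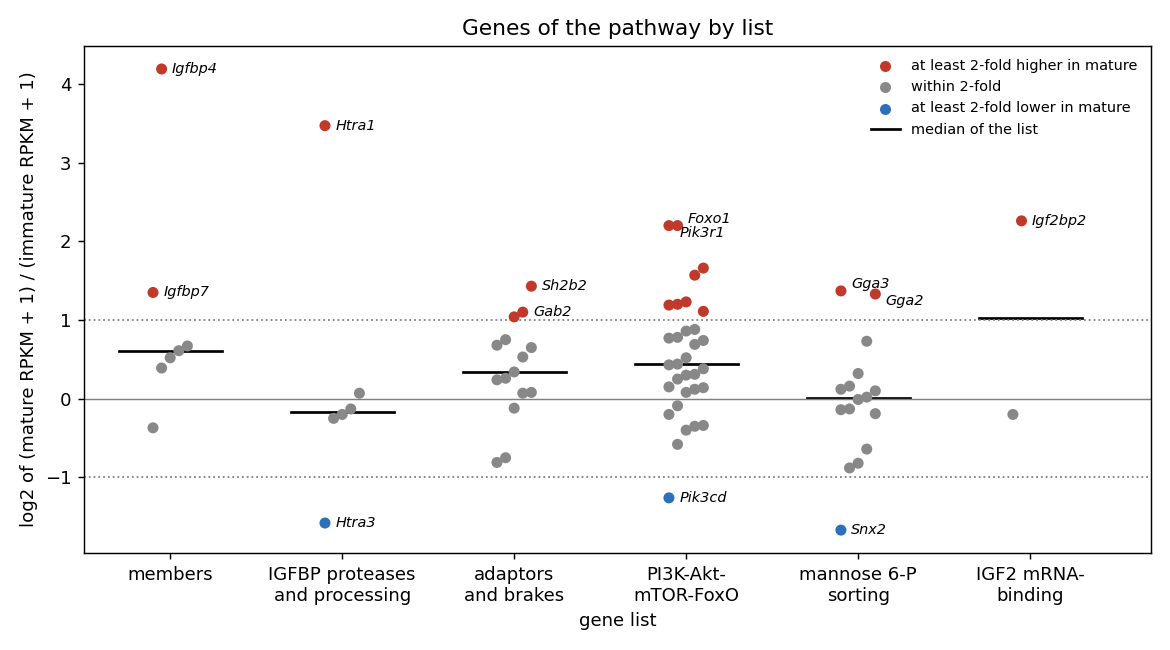
Log2 fold of mature over immature DC, on RPKM + 1, for the compared genes of 6 lists of the IGF pathway, 1 point a gene; red is at least 2-fold higher in mature DC, blue at least 2-fold lower, grey within 2-fold, the black bar the median of the list and dotted lines 2-fold. Igfbp4 and Htra1 lie highest, and the medians of the lists other than the 2 compared IGF2 mRNA-binding genes lie between -0.17 and 0.61.

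Fibroblasts and endothelial cells are known for IGF-binding proteins, so their markers were read in the same libraries. Of 12 stromal genes 3 reached 1 RPKM, 2 of them at least 2-fold lower in mature DC: Fn1, at 116 RPKM in mature and 591 RPKM in immature DC, and Thy1, at 30.2 RPKM in mature and 75.4 RPKM in immature DC. The third, Dcn, which encodes the matrix protein decorin of fibroblasts, went the other way and lay within 2-fold on the log2 scale, with 15 reads in mature and 2 in immature DC, a ratio of 7.03 (1.63 to 63.3). The list summed to 148 RPKM in mature and 669 RPKM in immature DC, most of it from Fn1. Its collagen genes were near 0, with 13 reads of Col1a1 in mature and 22 in immature DC, 5 reads of Col1a2 in mature and 10 in immature DC, and 2 reads of Col3a1 in mature and 1 in immature DC, while Postn and Cxcl12 had no row. Of 8 endothelial genes 4 reached 1 RPKM, with 1 higher (Kdr) and 2 lower (Pecam1 and Vwf), and the list summed to 27 RPKM in mature and 49.0 RPKM in immature DC. Cdh5, which marks endothelium, had 4 reads in mature and 6 in immature DC, Tie1 had 1 read in each, and Tek and Emcn had no row. Kdr had 5.17 RPKM in mature and 1.43 RPKM in immature DC, a ratio of 3.62 (2.71 to 4.91). Over all compared genes the shares were 9.05% higher and 11.3% lower. The part of stromal or endothelial cells in the Igfbp4 values was not tested. Lists for B cells and for T or NK cells summed to 2.11 and 4.97 RPKM in mature DC, and to 2.67 and 2.28 RPKM in immature DC, with Cd79b, Cd79a, Cd3g and Cd3d the most abundant.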

How the data were processed

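RNA of 1 mature and 1 immature library was sequenced on libraries made with a standard Illumina protocol, per the labels. The deposited files list, per Entrez gene, the count of uniquely placed reads (unnormalised), the model length, the percent of the model covered and RPKM. Per the file headers and a check of the formula, which returned each RPKM within a relative deviation of 1.07e-07, the authors made RPKM from those counts, model length and the reads counted to genes. Per the submitters' processing notes the build was mm8; the sources used here do not give the aligner, counter, annotation or strandedness. Files list genes with at least 1 read, and a gene listed in 1 file was set to 0 reads in the other. Genes with near copies can lose reads when counting is limited to unique placements. The deposited coverage percent served to check this.

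Symbols came from the RefSeq gene table (GRCm38.p6) for 16220 of 18090 entries. Fold changes were log2 of RPKM + 1 for genes that reached 1 RPKM in either library, called at 2-fold, with exact Clopper-Pearson intervals on reads. With 1 library per group no test was possible, and without molecular identifiers PCR copies of 1 molecule count as separate reads, so the intervals give counting error only. Alternatives were other pseudocounts, filters and scalings, TMM among them (edgeR 4.0.16). The steps (Python 3.11.15, scipy 1.17.1) were tested on simulated data that held counting noise only. Spread between cultures and PCR copies were not simulated, so that check says nothing about them. The members and gene lists were chosen with earlier results of these data known. Named genes were the members, up to 4 per list and direction, the 5 nearest to Igfbp4 in log2 fold, the sort markers and the 2 most abundant markers of each other cell type (42 in all). Genes outside this rule are marked where they occur, with these exceptions. The markers Flt3, Zbtb46, Itgax, Dpp4, Dcn, Kdr, Col1a1, Col1a2, Col3a1, Cdh5 and Tie1 also lie outside it and carry no mark. The same holds for genes, other than members, that are named for having no row.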

Additional observations from a re-analysis of the deposited data

How the results depend on the processing

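With a pseudocount of 5 RPKM, 1 member was called higher in place of 2, the log2 fold of Igfbp4 was 4.05, and 469 genes were called higher and 686 lower over all compared genes, in place of 1045 and 1310. With a filter at 5 RPKM 1 member was called higher, because Igfbp7 was no longer compared. Igfbp4 was called under all 8 alternatives of pseudocount, filter and scaling, between 4.05 and 4.28, and no compared member changed direction. Over the same alternatives the log2 fold was 0.49 to 2.36 for Igfbp7, 0.46 to 0.69 for Igf1, 0.39 to 0.60 for Insr, 0.30 to 0.47 for Igf2r and 0.47 to 0.74 for Irs2. No paired analysis was possible because each group has 1 library. Depth limits Igfbp7 and Pappa, with at most 26 reads in a library.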
